A study of Mus musculus with 12 samples.

Results

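The genes of the DNA replication machinery were followed through the first hours of adipogenic induction. The group was defined by function, from a list of 45 mouse gene names, and probes were assigned to it by the transcript accession that each probe carries. Of the 45 genes, 44 had a probe, among 32301 gene names and unnamed accessions on the array. Rpa1, a subunit of the single-strand binding protein RPA, was listed but not matched. Each of the 44 genes is described by its brightest probe, and these 44 probes were well above background on all 12 arrays.

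Replication starts at origins that are marked by the origin recognition complex, ORC. In G1 phase Cdc6 and Cdt1 load the MCM2-7 helicase onto ORC-bound DNA, a step called licensing that geminin blocks outside G1. The Cdc7-Dbf4 kinase, Cdc45, the GINS complex and Mcm10 then turn the helicase on, after which primase and the polymerases copy the strands around the PCNA clamp, and Fen1 and ligase I join the lagging strand. Confluent 3T3-L1 preadipocytes are arrested in growth and re-enter the cell cycle after the hormonal stimulus, a phase known as mitotic clonal expansion, and many replication genes are targets of E2F transcription factors.

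3T3-L1 is a clonal line of mouse embryonic fibroblasts that can be turned into adipocytes, and all 4 groups came from it. The 0 h groups were harvested after growth to confluence, without hormones, and the 6 h groups after 6 h in fresh medium with fetal bovine serum and a hormone mixture. The mixture held insulin at 5 µg/ml, dexamethasone at 1 µM and isobutylmethylxanthine at 0.5 mM. Lysates were spread over a sucrose gradient, whose fractions 5 to 7 gave the non-polysomal pool. The polysomal pool, with several ribosomes per mRNA, came from fractions 9 to 11, and the fraction between the pools was in neither. Each group (0 h non-polysomal, 0 h polysomal, 6 h non-polysomal, 6 h polysomal) had 3 one-colour arrays. Cells were grown before induction with newborn bovine serum, so the effects of the hormones and of the new medium and serum cannot be told apart.

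All values are log2 signals after alignment of the arrays on spiked-in viral control RNA, and a difference of 1 is 2-fold. The 75th percentile of the signal was 240.8 to 281.4 intensity units on the non-polysomal and 425.5 to 566.6 on the polysomal arrays, and 55.72 to 60.89% of the probes of an array were well above background. The spike-in offset was -0.21 to -0.48 on the 6 h polysomal arrays and 0.05 to 0.18 on the others, so each comparison with 6 h polysomal RNA depends on this scaling. All 8 fibroblast and preadipocyte markers and 6 of 7 adipocyte markers were detected, against 1 of 4 endothelial, 1 of 4 epithelial and 1 of 4 leukocyte markers. The summed linear signal over the groups was 185200 to 1214000 units for fibroblast and 25270 to 128100 for adipocyte markers, the latter 26190 to 93180 at 0 h. It was 32.59 to 119.8 for leukocyte and 19.72 to 36.82 for epithelial markers. The endothelial sum was 35.04 to 38.9 on the 6 h polysomal arrays and 7.353 to 9.878 elsewhere, and its part in the results was not tested. Of the 7 genes listed as known to respond to the induction mixture, 6 rose in each fraction.

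The members were compared in 5 contrasts from one limma fit over all probes. These were polysomal against non-polysomal RNA at 0 h and at 6 h, and 6 h against 0 h in each fraction. The last was the difference of the changes over time, M = (p6 - np6) - (p0 - np0). M is above 0 where the polysomal change exceeds the non-polysomal one, also where only the non-polysomal signal went down. Its level depends on the scaling of the 6 h polysomal arrays. A gene was called where the adjusted p was below 0.05 and the log2 value above 1 or below -1. The words rose and fell are used for called genes only.

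RefSeq promoters (GRCm38.p6), 250 bases before and 50 after the start, were found for 36 of the 45 genes. The E2F motif was searched as TTTCCCGC, TTTCGCGC, TTTGCCGC or TTTGGCGC on both strands, and 13 of the 36 genes (36.1%) held it, against 2.6% of 27025 genes. A CCAAT box (CCAAT) was found in 23 of 36 genes, against 41.1% of all genes, and a GC box (GGGCGG) in 28 of 36, against 38.2%. The CHR element (TTTGAA or TTCGAA), a short element of cell cycle promoters, was found in 10 of 36 genes, against 21.7%. A match of letters is a description and does not show that a factor binds. The 250 bases before the start are shown 5′ to 3′ on the gene's strand for 6 members whose values are described later. In the first 5 the capitals mark E2F motifs, which overlap each other in Mcm5 and in Mcm6, and in Top2a they mark CCAAT boxes on either strand.
Mcm5, chr8:75109259-75109508, plus strand: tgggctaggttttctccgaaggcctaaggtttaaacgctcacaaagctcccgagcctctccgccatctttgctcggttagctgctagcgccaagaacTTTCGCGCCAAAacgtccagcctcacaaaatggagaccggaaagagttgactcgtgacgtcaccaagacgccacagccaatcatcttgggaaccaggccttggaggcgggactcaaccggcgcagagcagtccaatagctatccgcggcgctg
Mcm6, chr1:128359706-128359955, minus strand: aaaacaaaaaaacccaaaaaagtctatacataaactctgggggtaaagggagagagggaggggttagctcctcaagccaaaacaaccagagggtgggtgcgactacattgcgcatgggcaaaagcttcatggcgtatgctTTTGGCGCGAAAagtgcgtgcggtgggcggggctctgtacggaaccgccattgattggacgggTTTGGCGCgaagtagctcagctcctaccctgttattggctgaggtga
Cdc6, chr11:98907901-98908150, plus strand: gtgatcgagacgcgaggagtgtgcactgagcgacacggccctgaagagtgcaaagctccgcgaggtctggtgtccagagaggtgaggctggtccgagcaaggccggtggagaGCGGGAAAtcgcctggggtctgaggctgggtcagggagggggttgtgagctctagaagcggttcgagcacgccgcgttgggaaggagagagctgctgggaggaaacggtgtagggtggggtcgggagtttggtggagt
Orc1, chr4:108579204-108579453, plus strand: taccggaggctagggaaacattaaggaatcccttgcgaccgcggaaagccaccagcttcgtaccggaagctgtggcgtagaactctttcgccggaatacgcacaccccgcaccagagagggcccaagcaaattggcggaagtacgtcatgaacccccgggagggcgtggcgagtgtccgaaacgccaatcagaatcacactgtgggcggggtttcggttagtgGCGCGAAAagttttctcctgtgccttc
Pola1, chrX:93632156-93632405, minus strand: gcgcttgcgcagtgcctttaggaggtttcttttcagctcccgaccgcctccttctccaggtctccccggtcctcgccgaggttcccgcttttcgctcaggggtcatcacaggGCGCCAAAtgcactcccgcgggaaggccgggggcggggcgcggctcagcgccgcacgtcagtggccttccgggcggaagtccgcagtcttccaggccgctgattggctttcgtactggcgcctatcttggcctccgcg
Top2a, chr11:99024190-99024439, minus strand: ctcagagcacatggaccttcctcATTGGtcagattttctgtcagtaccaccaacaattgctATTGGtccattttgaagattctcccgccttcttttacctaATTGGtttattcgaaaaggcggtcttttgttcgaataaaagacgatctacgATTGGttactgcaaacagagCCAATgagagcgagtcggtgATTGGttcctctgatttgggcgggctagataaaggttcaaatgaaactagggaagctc

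Mcm5 held 2 E2F motifs and Mcm6 3, while Cdc6, Orc1 and Pola1 held 1 each in these stretches. Top2a held no E2F motif but 6 CCAAT boxes, and is shown for these.

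Before induction most replication genes had a higher signal in polysomal than in non-polysomal RNA under the spike-in scaling. Spike-ins were added per amount of test RNA, so these differences do not give the share of a transcript that is on polysomes. At 0 h, 34 of the 44 genes had a higher signal in polysomal than in non-polysomal RNA and 1 had a lower one, with a median log2 difference of 1.85. Over all probes 27.3% were called higher and 9.83% lower, and 43.2% were higher among the detected probes, those above background on each array of some group. At 6 h 36 genes were higher and 1 was lower (median 2.01), beside 37.3% of all probes higher and 6.42% lower, and 55.3% higher among the detected ones. The median over all probes was 0.15 at 0 h and 0.68 at 6 h, so the members' median lay 1.70 and 1.33 above it (1.02 and 0.77 with quantile normalization). Over the detected probes, to which all 44 members belong, the median was 0.761 at 0 h and 1.205 at 6 h. The members' median lay less far above these. Scaling to the 75th percentile of each array in place of the spike-ins gave 21 higher and 3 lower genes at 0 h and 18 higher and 2 lower at 6 h, and turned the sign at 6 h for 3 of the called genes (Orc5 -0.13, Dbf4 -0.17 and Prim1 -0.20). Over all probes this scaling called 4752 of 41158 higher and 11033 lower at 0 h, and 4922 of 41171 higher and 9419 lower at 6 h.

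**Figure D1:**
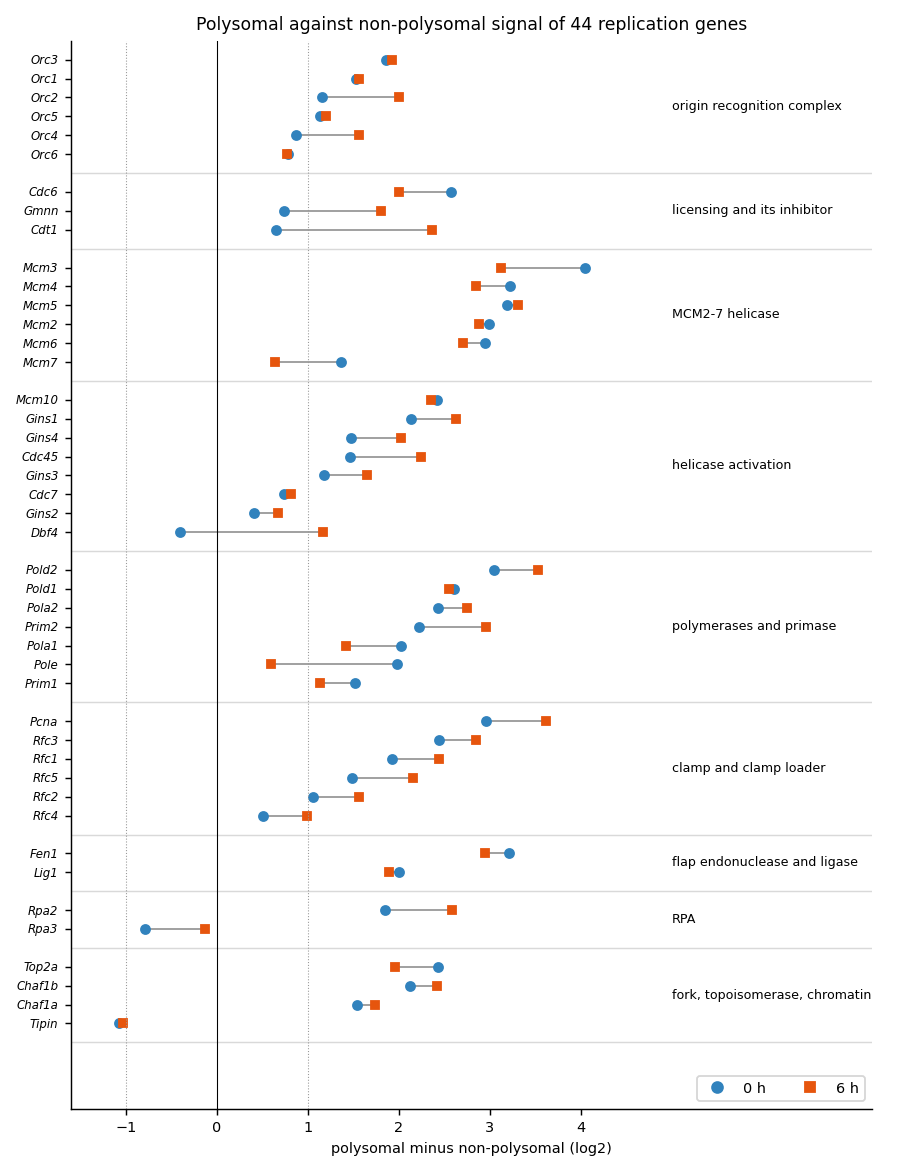
Polysomal minus non-polysomal log2 signal of the 44 replication genes at 0 h (blue circles) and 6 h (orange squares), grouped by role, with dotted lines at the call limits of -1 and 1. Mcm3 has the highest 0 h value (4.05), Tipin is the one gene below -1 at both times, and Dbf4 crosses 0 between the times under the spike-in scaling shown (with 75th percentile scaling it is below 0 at both).

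The MCM2-7 helicase, the ring of 6 subunits that unwinds DNA, stood highest among the roles with a median of 3.09 at 0 h, and all 6 genes were higher in polysomal RNA (5 of them under each of the 4 scalings, as Mcm7 was at 0.47 with 75th percentile scaling). Mcm3 had log2 signals of 5.82, 5.75 and 5.69 in non-polysomal and 9.69, 10.01 and 9.72 in polysomal RNA at 0 h, a difference of 4.05 ± 0.10 (SE; adjusted p = 1.39e-09). The difference was 3.22 for Mcm4, 3.19 for Mcm5, 2.99 for Mcm2, 2.94 for Mcm6 and 1.36 for Mcm7. At 6 h the first 5 lay between 2.70 (Mcm6) and 3.31 (Mcm5), and Mcm7, with 10.99, 11.08 and 11.08 in non-polysomal and 11.58, 11.72 and 11.76 in polysomal RNA, had a difference of 0.64 and was not called.

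Of the polymerases and primase, all 7 genes were higher at 0 h (median 2.22). Pold2, the accessory subunit of polymerase delta, was at 3.05 at 0 h and 3.54 at 6 h, and Pold1, its catalytic subunit, 2.61 and 2.56. Pola2 and Prim2, the non-catalytic partners of polymerase alpha and primase, were at 2.43 and 2.22 at 0 h, Pola1 2.03 and Prim1 1.52. Pole, the catalytic subunit of the leading-strand polymerase, was at 1.98 at 0 h and was the 1 gene of this role that was not called at 6 h (0.59, and -0.74 with 75th percentile scaling). Among the clamp and its loader, Pcna had 2.96 at 0 h and 3.62 at 6 h, the highest 6 h value of the 44 genes. Rfc3 (2.44), Rfc1 (1.93), Rfc5 (1.49) and Rfc2 (1.05) were higher at 0 h and at 6 h, when their values ran from 1.57 (Rfc2) to 2.85 (Rfc3), while Rfc4 was called at neither time (0.51 and 1.00). The 0 h value of Rfc4 rests on 1 non-polysomal array, as its spots on the others of that group were marked as outliers. At the lagging strand, Fen1, the flap endonuclease, was at 3.21 and 2.95, and Lig1, the ligase, 2.00 and 1.89. With 75th percentile scaling Prim1 (0.62), Rfc2 (0.16) and Rfc5 (0.60) at 0 h and Pola1 (0.090), Prim1 (-0.20), Rfc2 (0.23), Rfc5 (0.82) and Lig1 (0.56) at 6 h were within the limit.

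In the ORC, Orc3 (1.86), Orc1 (1.54), Orc2 (1.16) and Orc5 (1.13) were higher in polysomal RNA at 0 h, while Orc4 (0.88) and Orc6 (0.79) were not called. At 6 h Orc4 was higher too (1.56), and Orc6 stayed under the limit at 0.77. The 4 genes called at 0 h were all within the limit with 75th percentile scaling (Orc3 0.97, Orc1 0.64, Orc2 0.26 and Orc5 0.24), as were the 5 called at 6 h (-0.13 for Orc5 to 0.67 for Orc2), and the median over the ORC went from 1.14 to 0.25 at 0 h and from 1.56 to 0.23 at 6 h. Of the licensing genes Cdc6 was higher at both times (2.58 and 2.01), and Gmnn (0.74) and Cdt1 (0.66) passed at 6 h only, with 1.80 and 2.37. With 75th percentile scaling Gmnn and Cdt1 lay below 0 at 0 h (-0.15 and -0.24), and Cdc6 (0.67) and Gmnn (0.47) were within the limit at 6 h. Of the genes that activate the helicase, Mcm10 (2.42), Gins1 (2.13), Gins4 (1.47), Cdc45 (1.46) and Gins3 (1.18) were higher at 0 h and also at 6 h, where they ran from 1.65 (Gins3) to 2.63 (Gins1). Cdc45, Gins3 and Gins4 were within the limit with 75th percentile scaling at 0 h (0.57, 0.28 and 0.58) and at 6 h (0.91, 0.32 and 0.69). Gins2 (0.41 and 0.68) and the kinase Cdc7 (0.74 and 0.82) were called at neither time by their brightest probes. A probe of Cdc7 that was well above background on no array was at -0.10 at 0 h and was called higher at 6 h with 1.78. Dbf4, the subunit that activates Cdc7, was at -0.41 at 0 h and was called higher at 6 h with 1.16, a value that was -0.17 with 75th percentile scaling.

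Top2a, the topoisomerase of dividing cells, was at 2.44 and 1.96, and the chromatin assembly subunits Chaf1b 2.12 and 2.42 and Chaf1a 1.54 and 1.74. Rpa2 was at 1.84 and 2.59. With 75th percentile scaling Chaf1a (0.65) and Rpa2 (0.95) were within the limit at 0 h, and Chaf1a (0.41) and Top2a (0.62) at 6 h. Tipin, a partner of Timeless at the replication fork, was the exception in the other direction. It had 11.53, 11.61 and 11.31 in non-polysomal and 10.26, 10.51 and 10.43 in polysomal RNA at 0 h, with no overlap, a difference of -1.08 (adjusted p = 1.18e-05), and -1.03 at 6 h. Without the first slide these differences were within the limit (-0.99 and -0.94), as was the 6 h value without the second slide (-0.99) or with the dimmer spike-ins (-0.65). Rpa3, the smallest RPA subunit, was at -0.79 at 0 h with an adjusted p of 2.99e-04 but within the limit of 1, and at -0.13 at 6 h (adjusted p = 0.379).

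From 0 h to 6 h the members went both ways, and more of them down than up. In non-polysomal RNA 3 of 44 genes rose and 11 fell, where 8.12% of all probes rose and 8.11% fell (12.5% and 12.2% of the detected probes). The members' median was -0.60 against 0.04 over all probes. In polysomal RNA 3 rose and 9 fell, where 19.2% of all probes rose and 5% fell (27.1% and 7.75% of the detected probes). The members' median was -0.24 there, against 0.54 over all probes. Of the 44 genes, 36 lay below the median of all probes in the polysomal and 33 in the non-polysomal comparison. The sign of the polysomal median depended on the scaling: 75th percentile scaling gave -0.72, where 1 gene rose and 19 fell, quantile normalization gave -0.86, and the dimmer spike-ins alone gave 0.16, where 8 rose and 5 fell. Of all 41173 tested probes, 3640 rose and 4014 fell with 75th percentile scaling, and 15279 rose and 1184 fell with the dimmer spike-ins. The polysomal median lay 0.78 below the median of all probes, and 0.87 below it with quantile normalization. The spike-in and percentile scalings move all probes of an array by the same amount, so they cannot change this gap. In RNA of a whole culture, fewer cells in a phase and less mRNA per cell cannot be told apart.

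**Figure D2:**
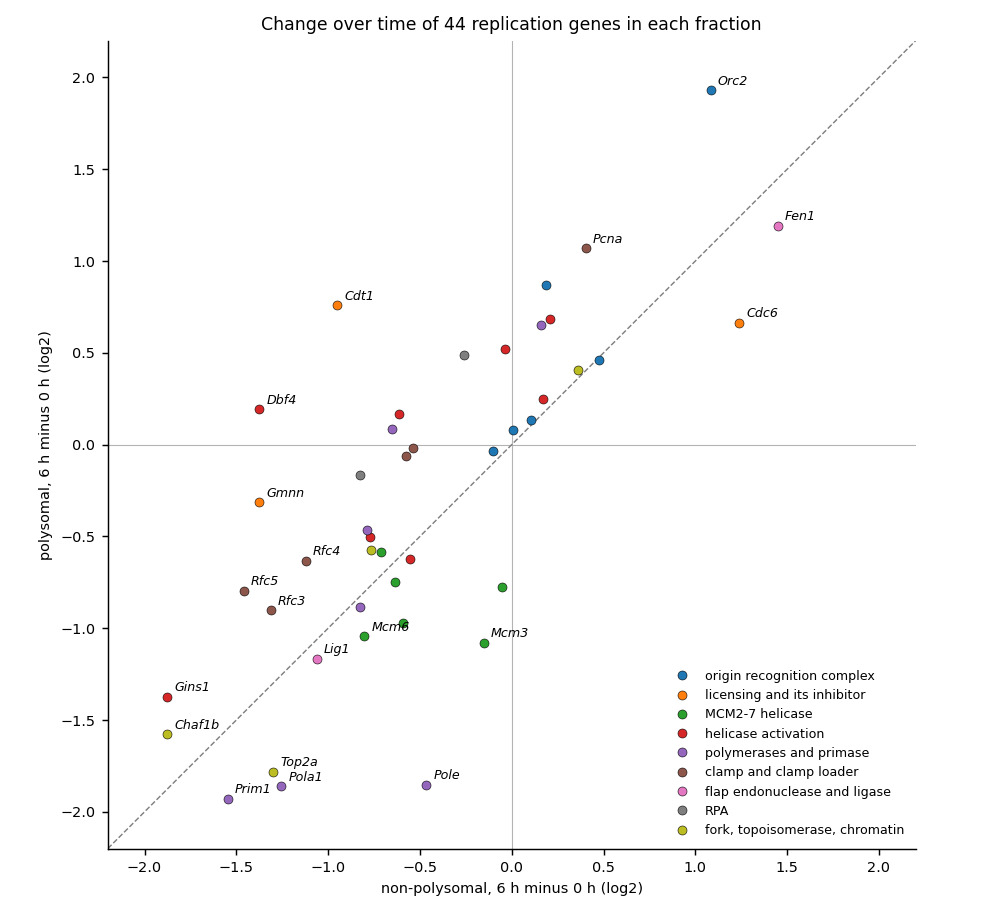
Change from 0 h to 6 h (log2) in non-polysomal RNA (horizontal) and polysomal RNA (vertical) for the 44 replication genes, coloured by role, with the dashed line of equal change. Named genes were called in at least 1 of the 3 comparisons over time. Orc2 and Fen1 rose in both fractions, and Prim1, Pola1, Chaf1b, Gins1, Top2a and Lig1 fell in both.

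Of the 6 ORC genes, Orc2, a core subunit, rose in both fractions and the other 5 passed the limit in neither. Orc2 had 7.82, 8.04 and 7.75 in non-polysomal RNA at 0 h and 9.00, 8.89 and 8.98 at 6 h, and 8.97, 9.15 and 8.97 in polysomal RNA at 0 h against 10.88, 10.95 and 11.05 at 6 h. The 6 h arrays lay above the 0 h arrays in each fraction without overlap. The changes were 1.08 ± 0.09 (SE; adjusted p = 6.65e-06) and 1.93 ± 0.09 (adjusted p = 7.11e-08), or 2.12-fold and 3.82-fold. The second was the highest polysomal increase of the 44 genes, also with quantile normalization, and ran from 1.38 to 2.33 under the 4 scalings. Orc4 was at 0.87 in polysomal RNA by its brightest probe, whereas its other 2 probes passed with 1.50 and 1.30. The non-polysomal value of Orc2 was within the limit in the deposited table (0.91) and after normexp background correction (0.84). Orc6, the smallest subunit, was at 0.47 and 0.46, and Orc1, the largest subunit, at 0.11 and 0.14, with arrays of 5.34 to 5.65 before and 5.58 to 5.73 after induction in polysomal RNA. Orc3 was at -0.10 and -0.04 and Orc5 at 0.01 and 0.08, with adjusted p between 0.505 and 0.971. The other 2 probes of Orc3 differed from the brightest in sign, with 0.39 and 0.09 in non-polysomal RNA, and the second of them had 0.13 in polysomal RNA, none of them called.

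The licensing genes parted. Cdc6, the loader, had 3.60, 4.07 and 4.00 in non-polysomal RNA at 0 h and 4.98, 5.17 and 5.24 at 6 h, and rose by 1.24 ± 0.13 (adjusted p = 2.95e-05). In polysomal RNA it went from 6.35, 6.57 and 6.48 to 7.14, 7.02 and 7.25, a difference of 0.66 that missed the limit, while a second probe of Cdc6 was at -0.18 (adjusted p = 0.556). By the brightest probe the arrays did not overlap in either fraction. The non-polysomal signals of Cdc6 are dim, and the value was within the limit in the deposited table (0.55) and after normexp background correction (0.38). Gmnn, which encodes geminin, the inhibitor of Cdt1, fell in non-polysomal RNA, from 10.55, 10.55 and 10.59 to 9.17, 9.19 and 9.19 (-1.38 ± 0.09, adjusted p = 8.56e-07). Its polysomal values of 11.14, 11.36 and 11.41 at 0 h and 10.90, 10.93 and 11.13 at 6 h differed by -0.31 with nearly touching ranges, but 75th percentile scaling gave -0.79, quantile normalization -0.99 and the dimmer spike-ins 0.09. Cdt1 itself was at -0.95 in non-polysomal and 0.76 in polysomal RNA, both with adjusted p below 0.05 and within the limit of 1.

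The MCM2-7 genes lay below 0 together, and whether they passed the limit depended on the scaling. All 6 had polysomal values below 0 with an adjusted p below 0.05 and a median of -0.87, and all 6 stayed below 0 under the 4 scalings. The spike-in scaling called 2 of them, whereas all 6 fell with 75th percentile scaling (-1.06 to -1.55, median -1.35) and with quantile normalization (-1.43 to -2.13, median -1.57). Mcm3 fell from 9.69, 10.01 and 9.72 to 8.68, 8.66 and 8.85 (-1.08 ± 0.10) and Mcm6 from 13.80, 13.91 and 14.10 to 12.91, 12.80 and 12.96 (-1.04 ± 0.09), without overlap. With the dimmer spike-ins both were within the limit, at -0.68 and -0.64. Single arrays decided both calls: without the second 0 h polysomal array Mcm3 was at -0.98, and without the third 0 h or the second 6 h polysomal array Mcm6 was within the limit too (-0.96 without the former). Mcm4 was at -0.97, Mcm7 at -0.78, Mcm2 at -0.75 and Mcm5 at -0.59. In non-polysomal RNA the median was -0.61 and none was called. Mcm5 and Mcm6, whose promoters are printed with 2 and 3 E2F motifs, lay at -0.71 and -0.80 there.

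Among the genes that activate the helicase, Gins1, the Psf1 subunit of GINS, fell in both fractions. It went from 7.22, 7.17 and 7.24 to 5.34, 5.35 and 5.33 in non-polysomal RNA (-1.88 ± 0.09, 3.67-fold lower, adjusted p = 9.08e-08) and from 9.20, 9.51 and 9.32 to between 7.89 and 8.02 in polysomal RNA (-1.37 ± 0.09, and -0.97 with the dimmer spike-ins). A second probe of Gins1 gave -1.98 and -1.45. The partners of Gins1 in the complex did not pass: Gins2 had -0.77 and -0.51, Gins3 0.21 and 0.68, and Gins4 -0.03 and 0.52. Dbf4 fell in non-polysomal RNA from 8.07, 8.15 and 8.04 to 6.55, 6.83 and 6.75 (-1.38 ± 0.11, adjusted p = 2.71e-06) and was at 0.19 in polysomal RNA. Cdc7, its kinase, was at 0.17 and 0.25 (its undetected probe at -0.78 in non-polysomal RNA, not called), Cdc45 at -0.61 and 0.17, and Mcm10 at -0.55 and -0.62.

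**Figure D3:**
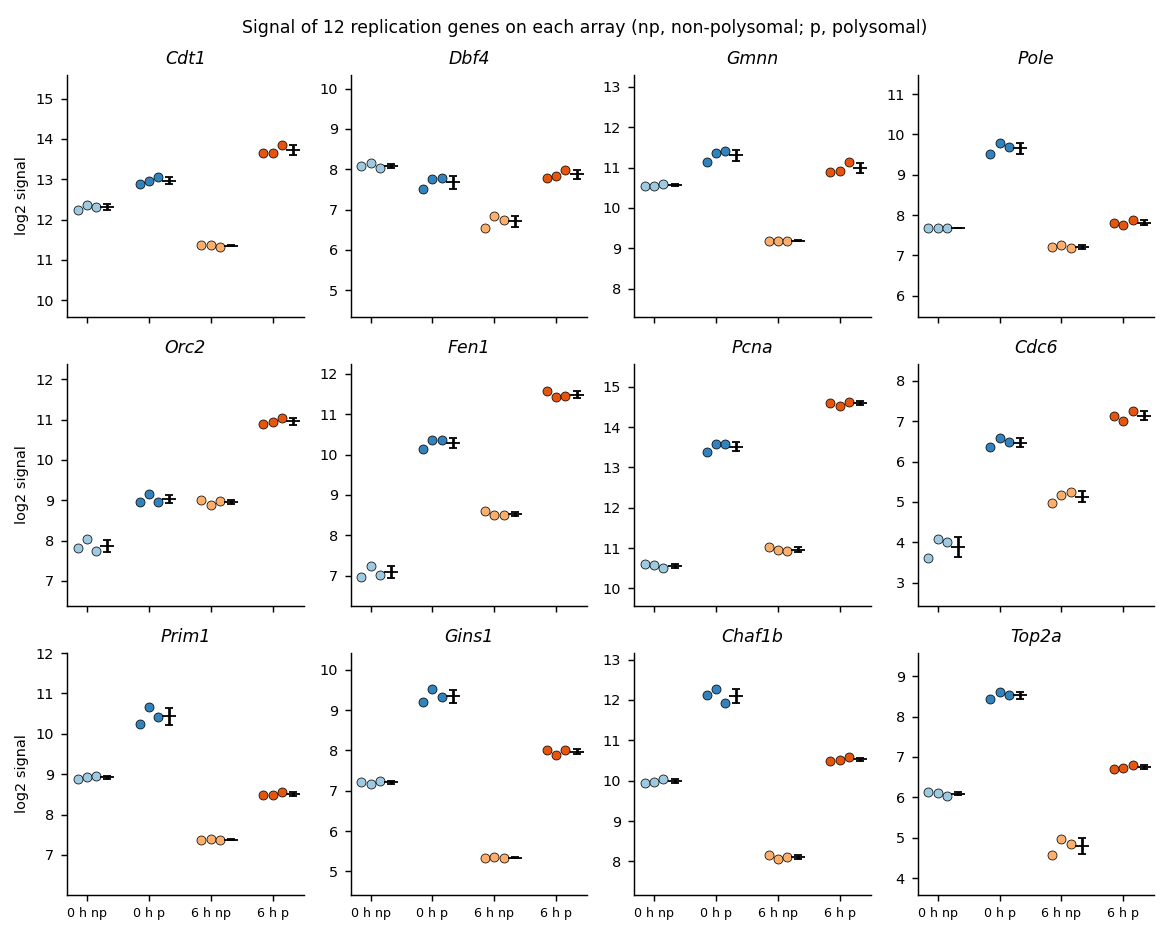
Log2 signal of 12 replication genes on each of the 12 arrays, 3 per group, with the group mean and SD beside the points. All panels span the same log2 range. Cdt1 separates between the fractions at 6 h (11.33 to 11.37 against 13.65 to 13.86), and Pole is close in both at 6 h (7.18 to 7.26 against 7.75 to 7.87).

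The catalytic subunits that begin a new strand fell together. Prim1, the catalytic primase subunit, went from 8.88, 8.94 and 8.95 to 7.38, 7.39 and 7.36 in non-polysomal RNA (-1.55 ± 0.10) and from 10.24, 10.66 and 10.42 to 8.49, 8.48 and 8.56 in polysomal RNA (-1.93 ± 0.10, 3.81-fold lower, adjusted p = 8.40e-08). Pola1, the catalytic subunit of polymerase alpha, fell from 7.75, 7.64 and 7.61 to 6.35, 6.56 and 6.34 (-1.25 ± 0.10, and -0.90 after normexp) and from 9.53, 9.78 and 9.79 to 7.82, 7.76 and 7.94 (-1.86 ± 0.10, adjusted p = 1.28e-07). In neither fraction did the 0 h and 6 h arrays of these genes overlap. Their partners Prim2 (-0.65 and 0.09) and Pola2 (-0.79 and -0.47) did not pass the limit in either fraction. Pole fell in polysomal RNA by 1.85 on the log2 scale (SE 0.08, adjusted p = 2.88e-08), from 9.51, 9.78 and 9.68 to 7.80, 7.75 and 7.87, and was at -0.47 in non-polysomal RNA. The subunits of polymerase delta differed in sign, with Pold1 at -0.83 and -0.89 and Pold2 at 0.16 and 0.65. A second probe of Pold1 passed in polysomal RNA with -1.08.

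Pcna, the sliding clamp, rose in polysomal RNA from 13.38, 13.59 and 13.58 to 14.61, 14.53 and 14.62 (1.07 ± 0.08, 2.10-fold, adjusted p = 1.07e-06), and was at 0.40 in non-polysomal RNA. This call was scale dependent: 75th percentile scaling gave 0.59, quantile normalization 0.11, and it was 0.99 without the first slide. Of the 5 clamp loader genes 3 fell in non-polysomal RNA. Rfc5 fell from 10.22, 10.26 and 10.35 to 8.75, 8.81 and 8.90 (-1.46 ± 0.08, adjusted p = 3.33e-07) and Rfc3 from 6.86, 6.89 and 6.93 to 5.52, 5.66 and 5.56 (-1.31 ± 0.09), the latter within the limit in the deposited table (-0.92) and after normexp (-0.66). Rfc4 fell by 1.12 on the log2 scale (SE 0.17), but 2 of its 3 spots at 0 h were marked as outliers, so that the value compares 1 array at 10.91 with 9.86, 9.75 and 9.76 at 6 h. Rfc1 and Rfc2 were at -0.54 and -0.58. In polysomal RNA the 5 loader genes ran from -0.90 (Rfc3) to -0.02 (Rfc1) and none was called, whereas 75th percentile scaling called Rfc3 (-1.38), Rfc5 (-1.27) and Rfc4 (-1.11), and quantile normalization called these and Rfc2 (-1.20).

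The enzymes that finish the lagging strand moved apart. Fen1 rose from 6.97, 7.25 and 7.02 to 8.59, 8.51 and 8.49 in non-polysomal RNA (1.45 ± 0.10, 2.73-fold, adjusted p = 1.04e-06) and from 10.14, 10.37 and 10.36 to 11.58, 11.42 and 11.46 in polysomal RNA (1.19 ± 0.10). Lig1 fell from 10.62, 10.67 and 10.64 to 9.63, 9.50 and 9.61 (-1.06 ± 0.08) and from 12.56, 12.74 and 12.62 to 11.33, 11.52 and 11.57 (-1.17 ± 0.08). In each fraction the arrays of both genes at 6 h lay wholly to one side of those at 0 h. For Fen1 the polysomal value was 0.72 (75th percentile) and 0.56 (quantile), and for Lig1 -0.77 with the dimmer spike-ins.

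Top2a, shown with 6 CCAAT boxes, fell from 6.12, 6.11 and 6.04 to 4.56, 4.96 and 4.85 in non-polysomal RNA (-1.30 ± 0.10) and from 8.44, 8.61 and 8.53 to 6.71, 6.72 and 6.81 in polysomal RNA (-1.78 ± 0.10, adjusted p = 2.06e-07). Chaf1b, the p60 subunit of chromatin assembly factor 1, fell from 9.94, 9.97 and 10.03 to 8.15, 8.06 and 8.11 (-1.88 ± 0.09) and from 12.12, 12.27 and 11.91 to 10.50, 10.50 and 10.58 (-1.58 ± 0.09). The arrays of the times did not overlap for either gene. The dim non-polysomal value of Top2a was within the limit in the deposited table (-0.76) and after normexp (-0.48). Chaf1a, the large subunit of the same factor, was at -0.77 and -0.57, and Tipin at 0.36 and 0.41. Rpa2 was at -0.26 in non-polysomal and 0.49 in polysomal RNA, and Rpa3 at -0.83 and -0.17.

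Of the 13 genes with an E2F motif, 4 fell and 0 rose in polysomal RNA (median -0.78), and of the 22 with a promoter and a probe but without the motif 3 fell and 3 rose (median 0.03). In non-polysomal RNA 3 of the 13 fell and 1 rose (median -0.71), and 6 of the 22 fell and 2 rose (median -0.58). Over all probes 5% fell and 19.2% rose in polysomal RNA (7.75% and 27.1% of the detected probes). The shares in non-polysomal RNA were 8.11% and 8.12% (12.2% and 12.5% of the detected probes). Cdc6 and Pola1, each with 1 motif before the start, rose and fell respectively in non-polysomal RNA, and Orc1, also with 1, was not called. These splits are a description of 35 genes under the spike-in scaling, on which the polysomal calls depend, and were not tested.

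M compares the change of polysomal with that of non-polysomal RNA. Of the 44 genes 3 were called higher and 1 lower, beside 12.1% and 1.32% of all probes (17% and 1.9% of the detected probes). The members' median was 0.23 (0.21, 0.15 and 0.35 within the 3 slides) against 0.49 over all probes, and 27 of 44 genes lay below the latter. The sign of the members' median depended on the scaling, with -0.21 for the 75th percentile, -0.28 for quantile normalization and 0.69 for the dimmer spike-ins.

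**Figure D4:**
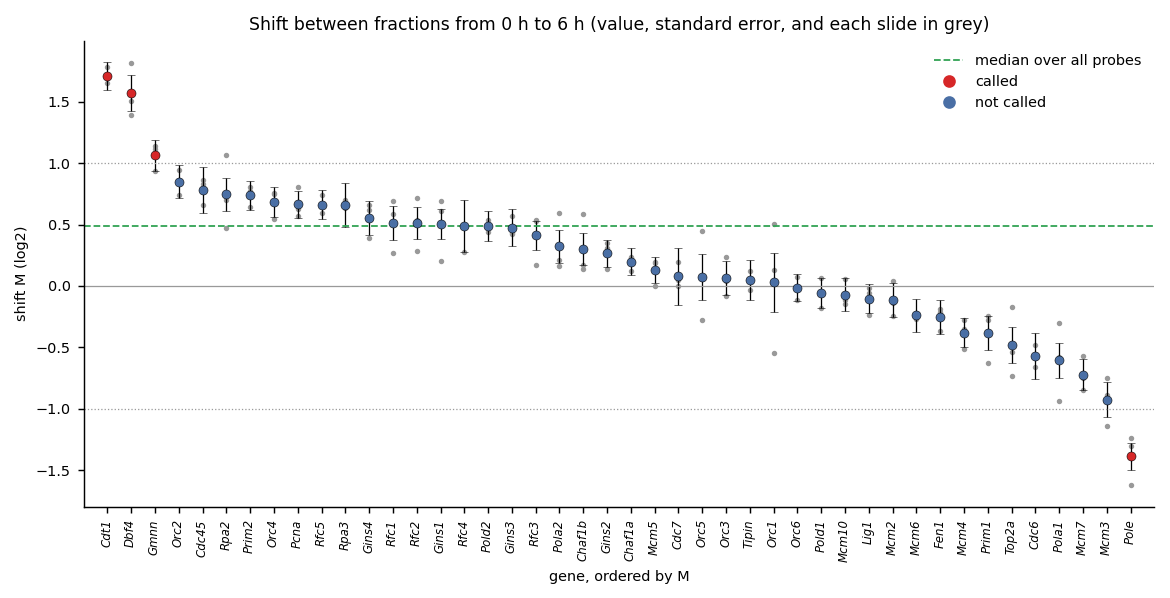
M of the 44 replication genes in descending order (log2), with standard errors from limma as bars, the value within each of the 3 slides as grey points and called genes in red. The green dashed line is the median over all probes (0.49), and dotted lines mark -1 and 1.

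Cdt1 had the highest M, 1.71 ± 0.12 (SE; adjusted p = 6.61e-06), or 3.27-fold. Its non-polysomal signal went from 12.24, 12.37 and 12.31 to 11.37, 11.37 and 11.33, while its polysomal signal went from 12.88, 12.96 and 13.06 to 13.66, 13.65 and 13.86. Neither pair of groups overlapped, and the polysomal excess went from 0.66 to 2.37. Within the slides M was 1.65, 1.70 and 1.78. 75th percentile scaling gave 1.27 and the dimmer spike-ins 2.16, but quantile normalization gave 0.96, which is within the limit. Under quantile normalization the polysomal change of Cdt1 was -0.17, so that the sign of this change depended on the scaling, whereas the non-polysomal value lay between -0.95 and -1.13.

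Dbf4 had an M of 1.57 ± 0.15 (adjusted p = 4.72e-05), with 1.81, 1.39 and 1.51 in the slides. Its polysomal arrays, at 7.50, 7.76 and 7.78 before and 7.79, 7.84 and 7.99 after induction, lay close, and its non-polysomal signal fell as given above. M stayed called under the 4 scalings, at 1.13 to 2.02. Gmnn had an M of 1.06 ± 0.13 (adjusted p = 1.66e-04), which 75th percentile scaling (0.62), quantile normalization (0.50) and normexp (0.97) brought within the limit. Without the first 0 h polysomal array it was 0.98, and without the third 6 h polysomal array 0.99, both within the limit.

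Pole was the gene called in the other direction, with an M of -1.39 ± 0.11 (adjusted p = 1.75e-05) and a polysomal excess that went from 1.98 to 0.59 (from 1.09 to -0.74 with 75th percentile scaling). In the slides M was -1.24, -1.63 and -1.30. 75th percentile scaling gave -1.83, and the dimmer spike-ins -0.93, within the limit. The next genes by size were not called: Mcm3 at -0.93, Orc2 at 0.85, Cdc45 at 0.78, Rpa2 at 0.75, Prim2 at 0.74 and Mcm7 at -0.72, all with adjusted p below 0.05. Under 75th percentile scaling and quantile normalization Mcm3 (-1.37 and -1.44), Mcm7 (-1.17 and -1.41) and Cdc6 (-1.02 and -1.14) were called lower, as were Pola1 under the former alone (-1.05) and Mcm4 (-1.24) and Mcm6 (-1.21) under the latter alone. The dimmer spike-ins called 12 genes higher, among them Orc2 (1.30), Cdc45 (1.24), Rpa2 (1.20) and Prim2 (1.19). They also called 14995 of all 41155 tested probes higher, with a median M over all probes of 0.94. By role, the 6 genes of the clamp and its loader had M between 0.41 and 0.67, of which 75th percentile scaling put 2 and quantile normalization 4 below 0, and 5 of the 6 MCM2-7 genes were below 0, as were all 6 with 75th percentile scaling and 2 of 6 with the dimmer spike-ins. M of the loader gene Rfc4 rests on 1 non-polysomal array at 0 h. A second probe of Cdc6 was called lower with -1.35, where the brightest had -0.57. A second probe of Cdc7 was at -0.05 against 0.08 for the brightest, and the one well above background on no array was called higher with 1.88. A second probe of Orc3 was at -0.49 (adjusted p = 0.490), against 0.06 for the brightest.

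**Figure D5:**
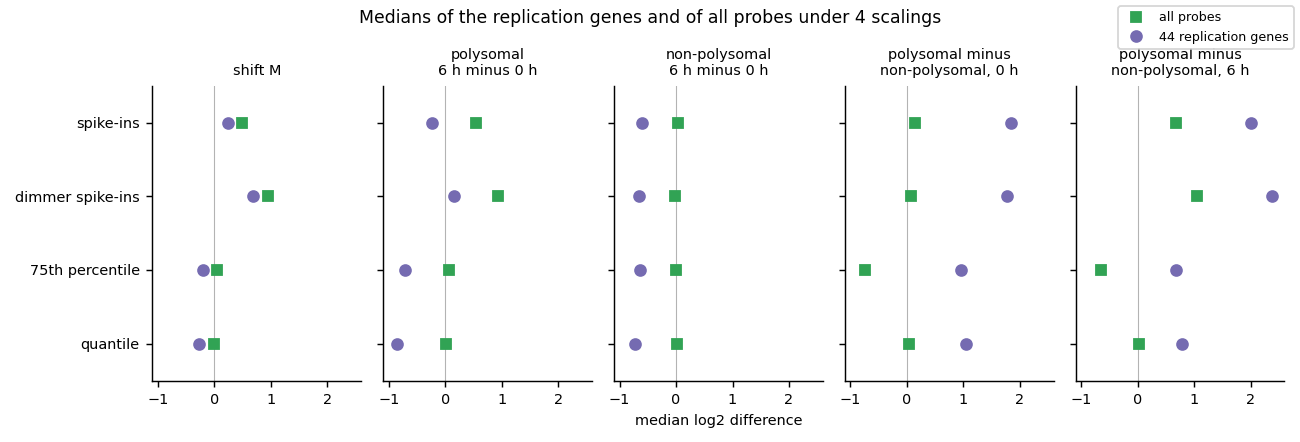
Median log2 difference of the 44 replication genes (purple circles) and of all probes (green squares) in the 5 comparisons under 4 scalings of the arrays. The members lie left of all probes in M and in both comparisons over time and right of them in both comparisons of fractions. Both medians move with the scaling wherever polysomal RNA takes part. Only quantile normalization can change the distance between them, as the other scalings move all probes of an array equally.

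Other genes of the replication pathway were counted from lists of related function. Of 34 further replication genes with a probe, 2 rose and 6 fell in polysomal and 1 rose and 10 fell in non-polysomal RNA. Over all probes 19.2% rose and 5% fell in polysomal and 8.12% rose and 8.11% fell in non-polysomal RNA. Dscc1, a subunit of an alternative clamp loader, fell in both fractions (-3.10 ± 0.16 and -2.85 ± 0.16), as did Uhrf1, which reads hemimethylated DNA behind the fork (-1.11 and -1.40, the former -0.71 with the dimmer spike-ins). Top1, topoisomerase I, rose in both (2.43 ± 0.09 and 2.78 ± 0.09). Timeless, the partner of Tipin, fell in polysomal RNA (-1.23 ± 0.09, and -0.83 with the dimmer spike-ins). Of the 34, 1 rose and 15 fell in polysomal RNA with 75th percentile scaling, where 3640 of all 41173 tested probes rose and 4014 fell.

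The counts for the next lists stand beside 19.2% of all probes that rose and 5% that fell in polysomal RNA (27.1% and 7.75% of the detected probes). In non-polysomal RNA 8.12% of all probes rose and 8.11% fell (12.5% and 12.2% of the detected probes). Of the 10 E2F and DP factors 4 rose and 2 fell in polysomal RNA. E2f3 (1.25), E2f4 (1.91), E2f5 (1.84) and Tfdp1 (1.49), the DP partner of the E2Fs, rose, and E2f1 (-1.44) and E2f7 (-1.24) fell. E2f3 was within the limit with 75th percentile scaling (0.77), Tfdp1 with quantile normalization (0.90) and E2f7 with the dimmer spike-ins (-0.84). E2f2, E2f7 and E2f8 fell and E2f4 and E2f5 rose in non-polysomal RNA. Among 5 S-phase cyclin and kinase genes, Ccne2, a cyclin E (1.24), and Cdc25a, the phosphatase that activates Cdk2 (1.79), rose in polysomal RNA, the former within the limit with 75th percentile scaling (0.76), and Ccna2, cyclin A, fell in non-polysomal RNA (-1.87). Of 8 genes of deoxynucleotide synthesis, Dut (1.57, and 0.78 with quantile normalization) and Dctd (2.35) rose in polysomal RNA and Tk1, thymidine kinase, fell in both fractions (-2.09 and -2.31). Of 19 mitosis genes 9 fell and 0 rose in polysomal RNA, and 15 fell and 0 rose in non-polysomal RNA, against 9 and 11 of the 44 replication genes that fell. In polysomal RNA 15 of the mitosis genes and 19 of the replication genes fell with 75th percentile scaling, as did 4014 of all 41173 tested probes.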

How the data were processed

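Polysomal and non-polysomal RNA of 3T3-L1 cells at 0 h and 6 h was measured on 12 one-colour Agilent whole-mouse arrays, 3 per group on 3 slides. Intensities were deposited as Feature Extraction 10.7.1.1 output, and gProcessedSignal, per the file headers, is background-subtracted intensity that is not scaled between arrays. The authors also deposited a log2 table, which on inspection equals log2 of the median pixel intensity plus a constant per array, and it served as an alternative. The study describes the arrays as biological replicates, whereas the labels do not name separate cultures, so p-values measure the spread between these samples.

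Spots marked as outliers were left out (484 probe values on single arrays), log2 signals were averaged per probe, and each array was offset by 10 spike-in transcripts of 32 spots each. Under this scaling a value is relative to the spiked RNA added per amount of test RNA. limma 3.58.1 (R 4.3.3, package data.table at version 1.17.8) was fitted to 41174 probes and 4 groups, with Benjamini-Hochberg adjustment over all probes. A call needed an adjusted p below 0.05 and a log2 value beyond 1. The script was tested on simulated data. Precision is limited by the 3 arrays per group.

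A gene is described by its brightest detected probe, and other probes are named where their sign or call differed. In each comparison the called members are named, with the next largest up to 10. The rule for the members uses no measured value, but the members and lists were chosen with earlier results of these data known. Of the probes, 64.8% had a gene symbol through RefSeq. The replicate number is also the slide number. Deviations from the group mean correlated between arrays of the same number with a median r of 0.049 (-0.079 to 0.209), and 3 of 18 pairs were above 0.1. Alternatives were 75th percentile scaling, quantile normalization, the 5 dimmer spike-ins, the deposited log2 table, normexp (offset 50, on median pixel intensities), dim probes left out, outlier spots kept, the mean over a gene's probes, the slide as a replicate block and each array or slide left out. Promoter sequences came from RefSeq (GRCm38.p6).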

Additional observations from a re-analysis of the deposited data

Results flagged for a closer look

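For 4 replication genes the difference between polysomal and non-polysomal RNA itself differed between 0 h and 6 h, by the interaction term of the limma fit and a log2 value beyond 1. Over all probes M was called higher for 12.1% and lower for 1.32% (17% and 1.9% of the detected probes), with a median of 0.49. The interaction M was 1.71 for Cdt1, 1.57 for Dbf4, 1.06 for Gmnn and -1.39 for Pole. Each had the same sign within all 3 slides. Cdt1, Dbf4 and Gmnn kept a positive value and Pole a negative one under each of the 4 scalings. Of the 3 genes with a positive M, Dbf4 passed the limit under each of the 4 scalings.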

How the results depend on the processing

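With 75th percentile scaling M was called lower for 5 members (median -0.21), the polysomal change higher for 1 and lower for 19 (median -0.72), and the fraction difference higher for 21 and lower for 3 at 0 h (median 0.96) and higher for 18 and lower for 2 at 6 h (median 0.67). Over all probes it called M lower for 1489 of 41155, and the polysomal change higher for 3640 and lower for 4014 of 41173. The fraction difference was higher for 4752 and lower for 11033 probes at 0 h, and for 4922 and 9419 at 6 h. Quantile normalization gave 1 higher and 6 lower for M (median -0.28), 1 and 20 for the polysomal change (median -0.86), a non-polysomal median of -0.72, 22 and 3 at 0 h (median 1.05) and 20 and 2 at 6 h (median 0.79). Over all probes it called 1268 higher and 1573 lower for M, and 3204 and 3843 for the polysomal change. For the fractions it called 6949 and 5807 probes at 0 h and 6422 and 5583 at 6 h. The dimmer spike-ins gave 12 higher and 0 lower for M (median 0.69), 8 and 5 for the polysomal change (median 0.16), and 0 lower at 6 h (median 2.38). Over all probes they called 14995 higher and 181 lower for M and 15279 and 1184 for the polysomal change, with 1929 lower at 6 h. The deposited log2 table gave 1 higher in non-polysomal RNA (median -0.51) and medians of 1.57 at 0 h and 1.82 at 6 h, and normexp 1 higher (median -0.45) and medians of 1.48 and 1.66. The share of calls over all probes that were higher was 90.1% for M and 79.3% for the polysomal change, but 49.8% and 47.6% with 75th percentile scaling. For 6 h fractions, Orc5 (-0.13), Dbf4 (-0.17) and Prim1 (-0.20) turned sign with 75th percentile scaling and for Prim1, polysomal against non-polysomal at 6 h, quantile normalization gave -0.090. The cause was not tested.

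Of 102 called gene values, 31 were lost and 3 turned sign with 75th percentile scaling, and 31 and 1 with quantile normalization. Losses numbered 7 with the dimmer spike-ins, 8 with the deposited table and 16 with normexp. Of the calls for the non-polysomal change, no scaling lost any, the deposited table lost 4 (Orc2, Cdc6, Rfc3 and Top2a) and normexp 5 (the same and Pola1). The replicate block, the mean over probes, leaving out dim probes and keeping outlier spots lost none, and with the replicate block 3 members were called higher and 1 lower for M. Leaving out single arrays or slides, M was higher for 2 to 3 and lower for 1 to 2 members, the polysomal change higher for 2 to 3 and lower for 8 to 10 and the fraction difference lower for 0 to 1, with a 6 h median of 1.95 to 2.06. Rfc4 gave no value without the second 0 h non-polysomal array.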

Other observations

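Genes of mitosis moved further down than the replication genes, although the difference between the groups of genes was not tested. The median change over 19 mitosis genes was -1.41 in non-polysomal and -0.92 in polysomal RNA. Ccnb2, a cyclin B, fell by 2.23 and 1.88 on the log2 scale (SE 0.08), and Cenpf, a kinetochore protein, by 2.16 and 2.53 (SE 0.11). Mki67, the proliferation marker, fell by 1.44 and 2.57 (SE 0.10). Aurka, a spindle kinase, fell in non-polysomal RNA (-1.22 ± 0.10) and was at 0.25 in polysomal RNA, so that its M was 1.46 ± 0.14, and Ube2c, a ubiquitin-conjugating enzyme of mitotic exit, had an M of 1.48 ± 0.12. Mki67 had an M of -1.12 ± 0.14. M of Ube2c passed under each of the 4 scalings (1.02 to 1.93), that of Aurka was within the limit with quantile normalization (0.68) and that of Mki67 with the dimmer spike-ins (-0.67).

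Under the spike-in scaling M was called higher for 3 of 8 genes of deoxynucleotide synthesis, beside 12.1% of all probes (17% of the detected probes). It was 1.36 for Dctd, the deaminase of dCMP, 1.15 for Tyms, thymidylate synthase, and 1.12 for Dut, which hydrolyses dUTP. Of the 5 S-phase cyclin and kinase genes 2 were called higher: Cdk2 and Ccna2, the kinase and cyclin of S phase, had an M of 1.36 and 1.02. With 75th percentile scaling all of these called genes were within the limit. M was then 0.92 for Dctd, 0.71 for Tyms, 0.68 for Dut, 0.92 for Cdk2 and 0.58 for Ccna2. In the same order quantile normalization gave 0.84, 0.36, 0.63, 0.90 and 0.44, also within the limit.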
